A study of Homo sapiens with 12 samples.

Results

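The genes described here are the core drivers and brakes of the G1 phase: the D-type cyclins CCND1, CCND2 and CCND3, the E-type cyclins CCNE1 and CCNE2, the kinases CDK2, CDK4 and CDK6, the inhibitor CDKN1B (p27) and the phosphatase CDC25A. They were chosen by symbol, with earlier results of these data known, and all 10 were among the 23434 genes of the count table. Their newly made RNA was measured by EU-seq, in which cells take up 5-ethynyl-uridine (EU) and only RNA made during the pulse is captured and sequenced. The cells were U2OS-MycER, a human osteosarcoma line with a transgene that fuses Myc to the estrogen receptor, which 4-hydroxytamoxifen (OHT) switches on. The 12 libraries fell into 4 groups of 3: a non-targeting hairpin (shNT), shNT with OHT, a hairpin against the transcription kinase CDK12 (shCDK12), and shCDK12 with OHT. Hairpins were induced in every group with doxycycline at 1 µg/mL, and OHT was given at 300 nM for 40 h. All cells were held in nocodazole (100 ng/mL, 8 h), shaken off, released for 12 h and labelled with 0.5 mM EU for 2 h. The model is a single tumour line whose Myc transgene is present in the control cells too. No cells without the transgene were given OHT, so an effect of OHT itself cannot be told apart from one of MycER. MycER activation below names the comparison with OHT against without.

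Cells leave G1 when cyclin-dependent kinases phosphorylate the retinoblastoma protein and free the E2F transcription factors. D-type cyclins respond to growth signals and activate CDK4 and CDK6, while E-type cyclins come later and activate CDK2. CDKN1B restrains these complexes, and CDC25A removes the phosphate that keeps CDK2 inactive. Several of these genes have been described as targets of Myc, among them CCND2, CDK4 and CDC25A.

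CDK12, the gene the hairpin is meant to silence, was examined first, as a partial check of the labels. Its level, as a share of the library scaled by TMM (CPM, used for all levels below), was 323, 289 and 300.2 in the shNT libraries and 434, 356 and 400.5 in shNT with OHT. The libraries labelled shCDK12 had 293, 277 and 298, and those labelled shCDK12+OHT had 215, 208 and 218. Without OHT the shNT and shCDK12 libraries overlapped, and the log2 fold change was -0.04 ± 0.09 (SE, adjusted p = 0.726 by edgeR's quasi-likelihood test, as for every adjusted p below). With OHT the libraries labelled shCDK12 were lower, at -0.90 ± 0.11 on the log2 scale (adjusted p = 9.23e-05). The level of newly made CDK12 RNA thus did not separate the shNT and shCDK12 labels without OHT. The hairpin groups are therefore called the libraries labelled shCDK12 and shCDK12+OHT throughout. EU-seq captures only RNA made during the pulse, and total CDK12 RNA and protein were not measured here. This level therefore cannot decide whether the hairpin worked or whether the labels are right. MYC averaged 2093 CPM in shNT, 1967 in shNT+OHT, 1124 in the libraries labelled shCDK12 and 2062 in those labelled shCDK12+OHT. Its log2 fold change upon OHT was -0.09 ± 0.10 in shNT (adjusted p = 0.566). In the libraries labelled shCDK12 it was 0.84 ± 0.08 (adjusted p = 3.58e-08). Between labels it was -0.86 ± 0.08 without OHT (adjusted p = 2.25e-10) and 0.07 ± 0.10 with it (adjusted p = 0.61). Reads of the MYC gene and of the MycER transgene were not told apart in these values. Whether the labels shCDK12 and shCDK12+OHT were exchanged was not tested. An exchange would turn the sign of every OHT difference given for these libraries and swap their levels. The differences from shNT and the interaction terms would then take other values, in size as well as sign.

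Libraries held between 1251695 and 10447836 counts, with medians of 4314380 in shNT, 3297982 in shNT+OHT, 5349901 in the libraries labelled shCDK12 and 7173020 in those labelled shCDK12+OHT. The 10 genes took 0.249% to 0.352% of a library. The values are relative to the total of each library, so a change in the total amount of new RNA was not analysed here, and in these bulk samples fewer cells of a type cannot be told apart from less RNA per cell. As a check of the cell type, 8 mesenchymal markers summed to 1595 to 1677 CPM in shNT, 1069 to 1162 in shNT+OHT, 428 to 445 in the libraries labelled shCDK12 and 602 to 618 in those labelled shCDK12+OHT. Of these markers, COL1A2 stayed at or below 1.16 CPM and TWIST1 was at 0 in 11 libraries, while 4 blood markers summed to at most 2.15 CPM. FN1 averaged 659, 347, 38.2 and 100.1 CPM in the same order of groups, and VIM 323, 330, 180 and 174. Epithelial markers (4 genes) summed to 33.6 to 46.4 CPM in shNT and 23.1 to 37.4 in shNT+OHT. Their sums were 55.0 to 61.8 in the libraries labelled shCDK12 and 108 to 120 in those labelled shCDK12+OHT. Among them CLDN4 averaged 28.8, 19.2, 44.4 and 106 CPM in that order, and KRT19 was at 0 in all 12 libraries. The marker sums moved with the groups, and their part in the results below was not tested. The labels do not say whether replicates came from separate cultures, so the p-values measure the spread between these libraries only.

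Because the cells carry an inducible Myc, promoter sequence is shown for the members whose upstream bases held a searched motif. The motifs were CACGTG, the E-box bound by Myc and Max, and the E2F sites TTTGGCGC and TTTCCCGC, sought on both strands in the 250 bases before a start site. RefSeq (GRCh38.p14) gave promoters for 6 of the 10 genes (CCND3, CCNE1, CDK4, CDK6, CDKN1B and CDC25A) and none in the table used here for CCND1, CCND2, CCNE2 and CDK2. CDK4 (minus strand, chr12:57752311-57752560) held CACGTG in 3 places, whose first bases lie 216, 196 and 101 bases before the start. CDC25A (minus strand, chr3:48188418-48188667) held TTTGGCGC once, 44 bases before the start. Each sequence reads 5′ to 3′ towards the start site, with the motif in capitals.
CDK4: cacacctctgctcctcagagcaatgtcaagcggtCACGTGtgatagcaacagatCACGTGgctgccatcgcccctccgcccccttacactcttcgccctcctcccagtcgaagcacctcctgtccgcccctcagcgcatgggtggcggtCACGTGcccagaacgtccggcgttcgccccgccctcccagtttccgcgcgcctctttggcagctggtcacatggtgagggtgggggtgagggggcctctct
CDC25A: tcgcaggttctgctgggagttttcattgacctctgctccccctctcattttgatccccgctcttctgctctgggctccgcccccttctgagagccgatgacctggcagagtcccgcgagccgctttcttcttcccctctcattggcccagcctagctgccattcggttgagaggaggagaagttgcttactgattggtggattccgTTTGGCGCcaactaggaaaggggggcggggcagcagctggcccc
Of 35116 RefSeq promoters of the same length, 6.34% held CACGTG, and 28 (0.0797%) held it in at least 3 places. TTTGGCGC occurred in 0.55% and TTTCCCGC in 1.39%. A match describes the letters only, and binding was not measured.

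**Figure D1:**
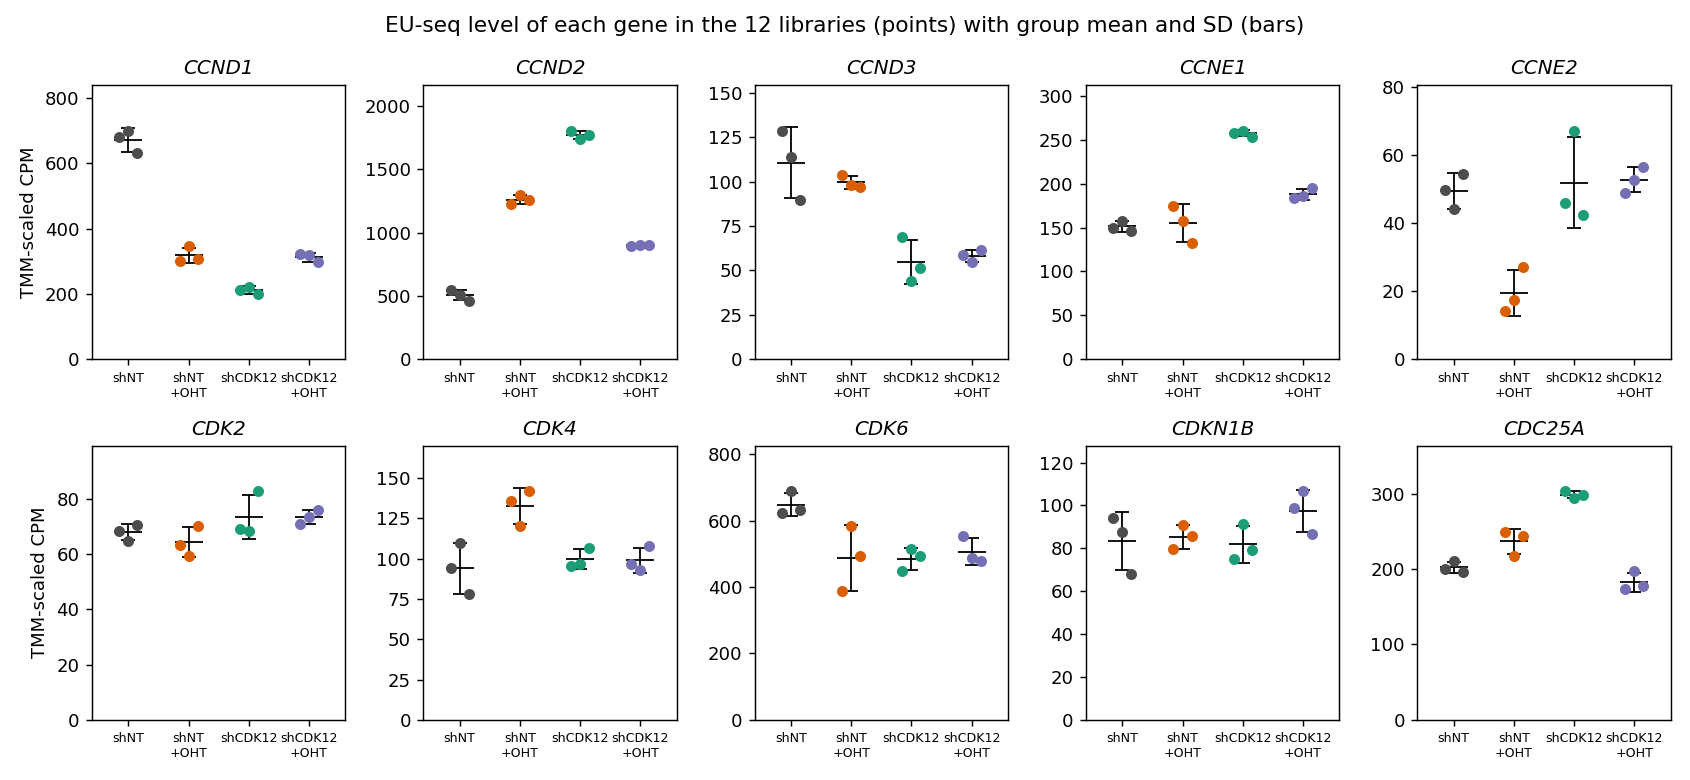
Level of each gene in TMM-scaled CPM (y axis, from 0, a scale of its own in each panel) in the 12 libraries, by labelled group (x axis); points are libraries and bars the group mean with 1 SD. CCND1 and CCND2 show the widest and opposite steps between groups, while the points of CDK2 and CDKN1B lie close together across all 4 groups.

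CCND2 and CCND1 had the widest ranges of group means among the 10 genes, and they changed in opposite directions. CCND1, a D-type cyclin induced by growth factor signals, stood at 683, 701 and 631 CPM in shNT, and at 302, 346 and 307 in shNT+OHT. In the libraries labelled shCDK12 it was 212, 222 and 198 CPM, and in those labelled shCDK12+OHT it was 321, 319.6 and 297. The shNT libraries were thus the highest and those labelled shCDK12 the lowest, a 3.18-fold range of means, with the OHT groups overlapping in between. Upon MycER activation CCND1 fell in shNT, by 1.09 ± 0.11 on the log2 scale (SE, adjusted p = 1.77e-05), and rose in the libraries labelled shCDK12, with a log2 fold change of 0.53 ± 0.08 (adjusted p = 1.22e-05). Without OHT it was lower in the libraries labelled shCDK12 than in shNT (log2 fold change -1.64 ± 0.08, adjusted p = 1.01e-15). With OHT the difference was -0.02 (95% interval -0.24 to 0.20, adjusted p = 0.885).

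CCND2, another activator of CDK4 and CDK6, stood at 545, 509 and 462 CPM in shNT, and at 1228, 1295 and 1261 in shNT+OHT. It reached 1806, 1738 and 1770.2 CPM in the libraries labelled shCDK12, and 890.3, 902 and 903 in those labelled shCDK12+OHT. No group overlapped another, and the means spanned 3.51-fold. Upon MycER activation CCND2 rose 2.49-fold in shNT (log2 fold change 1.31 ± 0.10, adjusted p = 2.74e-06) and fell in the libraries labelled shCDK12 (-1.01 ± 0.07, adjusted p = 9.42e-10). The libraries labelled shCDK12 were 3.59-fold higher than shNT without OHT (log2 fold change 1.84 ± 0.08, adjusted p = 2.16e-17). With OHT they were lower (-0.49 ± 0.08, adjusted p = 0.000837), a call that was lost when every library was thinned to 1251695 counts (-0.29, adjusted p = 0.087).

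CCND3, the remaining D-type cyclin, was lower in the libraries labelled shCDK12 whether or not OHT was given. It stood at 129, 114 and 89.7 CPM in shNT and 104, 98.2 and 97.1 in shNT+OHT, against 68.6, 44.1 and 51.3 in the libraries labelled shCDK12 and 58.7, 54.7 and 61.3 in those labelled shCDK12+OHT. Every library labelled shCDK12, with or without OHT, lay below every shNT library. The log2 fold change was -1.02 ± 0.14 without OHT (adjusted p = 8.03e-07) and -0.78 ± 0.12 with it (adjusted p = 0.000538). OHT left intervals around 0, from -0.49 to 0.16 in shNT and from -0.20 to 0.36 in the libraries labelled shCDK12, although without shCDK12 replicate 1 the latter passed the test (0.27, adjusted p = 0.0485).

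Set per kilobase of annotated exon, so that genes of unequal length can be compared, the D-type cyclins changed places. In shNT, CCND1 made up 63.1% ± 1.64 (SD, n = 3) of their summed signal and CCND2 28.3% ± 0.79. In shNT+OHT the shares were 27.6% ± 1.09 and 65.3% ± 0.81. In the libraries labelled shCDK12 they were 16.1% ± 0.95 and 80.5% ± 0.81, and in those labelled shCDK12+OHT 34.9% ± 1.17 and 59.8% ± 0.91. The ratio of CCND2 to CCND1 on this scale was 0.448 in shNT, 2.37 in shNT+OHT, 5.02 in the libraries labelled shCDK12 and 1.72 in those labelled shCDK12+OHT. The summed level varied less, with means of 224 ± 15.3, 242 ± 8.71, 276 ± 6.11 and 188 ± 1.85 CPM per kb in the same order. These shares restate the CPM values above and were not tested again. In the annotation, 12.5% of the exon bases of CCND2 are shared with another gene model on its own strand and 497 of those of CCND1 lie opposite LTO1, so some of their reads may be shared. The exon lengths come from GENCODE v44, and which parts of the genes were counted is not given in the sources used here.

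**Figure D2:**
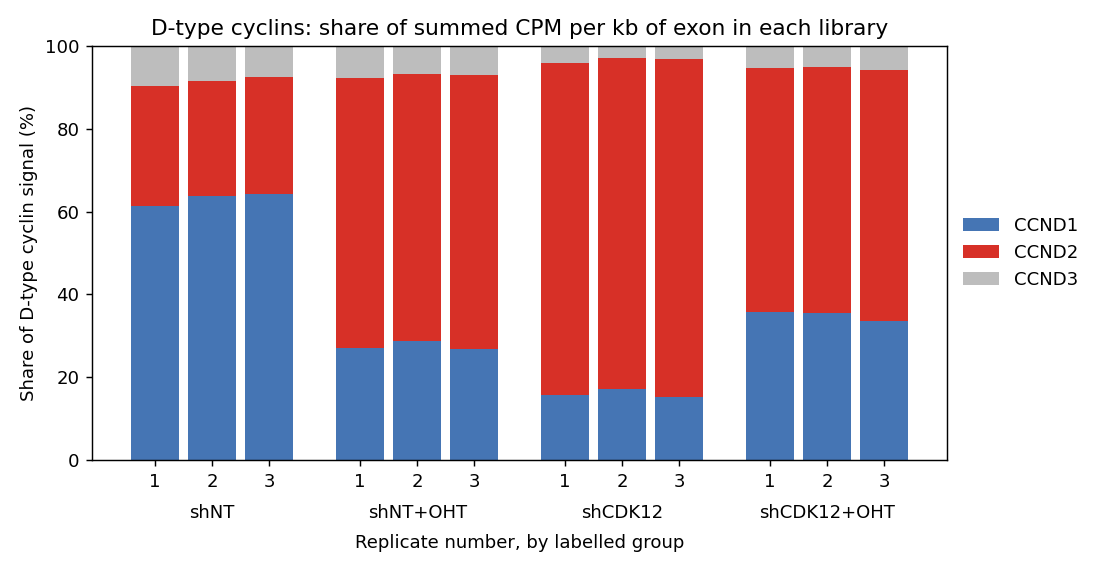
Share of each D-type cyclin (y axis, % of the summed CPM per kb of exon of CCND1, CCND2 and CCND3) in each library (x axis, replicates 1 to 3 of each labelled group). CCND1 holds 61.3% to 64.4% in shNT, and CCND2 holds 59.0% to 81.4% in the other 9 libraries.

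The E-type cyclins, which activate CDK2 late in G1, did not move together. CCNE1 stood at 149.9, 158 and 146 CPM in shNT and at 175, 158 and 133 in shNT+OHT, which overlapped. It was 258, 261 and 254 CPM in the libraries labelled shCDK12, above every other library, and 183, 186 and 195 in those labelled shCDK12+OHT. The libraries labelled shCDK12 exceeded shNT (log2 fold change 0.80 ± 0.09, adjusted p = 7.51e-09), and CCNE1 fell in them upon OHT (-0.49 ± 0.07, adjusted p = 2.49e-05), a call that was lost after thinning (-0.41, adjusted p = 0.123). In shNT the OHT difference was 0.03, with an interval of -0.26 to 0.32. With OHT, the libraries labelled shCDK12 differed from shNT by 0.28 (adjusted p = 0.0954). This difference passed the test without shNT_OHT replicate 1 (0.39, adjusted p = 0.00418) and also after a length trend was removed.

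CCNE2 was lowest in shNT+OHT. It stood at 49.7, 44.1 and 54.6 CPM in shNT but at 14.1, 17.3 and 27.0 in shNT+OHT, where it rested on 45, 21 and 93 counts. It was 46.1, 67.3 and 42.4 CPM in the libraries labelled shCDK12 and 49.0, 52.8 and 56.4 in those labelled shCDK12+OHT. The other 3 groups overlapped one another, and every shNT+OHT library lay below them. CCNE2 fell upon MycER activation in shNT (log2 fold change -1.32 ± 0.25, adjusted p = 0.00281), while in the libraries labelled shCDK12 the difference was -0.04 (interval -0.33 to 0.25). With OHT it was higher in the libraries labelled shCDK12 than in shNT (1.41 ± 0.22, adjusted p = 0.000537). In the annotation, 37% of its exon bases lie opposite exons of INTS8, a subunit of the Integrator complex, and the strand setting of the counting is not given in the sources used here. INTS8 itself fell upon MycER activation in shNT (-1.37 ± 0.33, adjusted p = 0.0117), and its difference upon OHT in the libraries labelled shCDK12 was -0.07 (adjusted p = 0.802). Between labels INTS8 was lower without OHT (-0.76 ± 0.25, adjusted p = 0.00958), where CCNE2 differed by 0.14 (adjusted p = 0.46). With OHT its difference was 0.52 (adjusted p = 0.179). The interaction term of INTS8 was 1.26 (adjusted p = 0.0124), in the direction of that of CCNE2. Whether the reads of either gene were partly assigned to the other was not tested.

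Among the kinases, CDK2 passed 0 of the 5 tests in edgeR, with 0 at an unadjusted p under 0.05 and 0 by DESeq2. Its levels ran from 59.4 to 82.7 CPM over the 12 libraries, and the 4 log2 fold changes from -0.07 to 0.18, each with an interval that held 0 (the widest from -0.41 to 0.27, for OHT in shNT). After a length trend was removed, it was called higher in the libraries labelled shCDK12 than in shNT with OHT (0.37, adjusted p = 0.0283).

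CDK4, the partner of the D-type cyclins whose promoter is shown above, stood at 94.4, 109.9 and 78.2 CPM in shNT and at 136, 120.4 and 142 in shNT+OHT. In the libraries labelled shCDK12 it was 95.2, 97.0 and 107 CPM, and in those labelled shCDK12+OHT 96.4, 93.0 and 108. Every shNT+OHT library lay above all the others, which overlapped. The log2 fold change upon MycER activation was 0.49 ± 0.15 in shNT (adjusted p = 0.0337) and -0.04 in the libraries labelled shCDK12 (interval -0.24 to 0.15). With OHT the libraries labelled shCDK12 were lower than shNT (-0.43 ± 0.12, adjusted p = 0.0157). Neither call held up against single libraries: the first was lost without shNT replicate 1, 2 or 3 or without shNT_OHT replicate 3 (adjusted p from 0.0668 to 0.167), and the second without shCDK12_OHT replicate 1 or 2 (0.079 and 0.104). Both were also lost after thinning (0.287 and 0.145) and after a trend with gene length was removed (0.166 and 0.152). Exons of TSPAN31 lie opposite 44.2% of the exon bases of CDK4. The log2 fold change of TSPAN31 was 0.16 (adjusted p = 0.755) for OHT in shNT, -0.64 (adjusted p = 0.00248) for OHT in the libraries labelled shCDK12 and 1.10 (adjusted p = 5.55e-05) between labels without OHT. Its interaction term was -0.85 (adjusted p = 0.0362), in the direction of that of CDK4, and whether reads of either gene were assigned to the other was not tested.

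CDK6, the other partner of the D-type cyclins and the longest gene of the group with a span of 231.653 kb, stood at 624, 689 and 632 CPM in shNT. It was 387, 585 and 493 CPM in shNT+OHT, 447, 514 and 492 in the libraries labelled shCDK12, and 555, 487 and 479 in those labelled shCDK12+OHT. The shNT libraries lay above all 9 others. It fell upon MycER activation in shNT (log2 fold change -0.42 ± 0.13, adjusted p = 0.0403) and was lower without OHT in the libraries labelled shCDK12 than in shNT (-0.38 ± 0.08, adjusted p = 0.000123). The first call was lost without shNT replicate 1, 2 or 3 or without shNT_OHT replicate 3 (adjusted p from 0.0931 to 0.151), with another filter on low counts (0.0541) and after a length trend was removed (-0.19, adjusted p = 0.302). The OHT difference in the libraries labelled shCDK12 was 0.03 (interval -0.13 to 0.20), and that between hairpin labels with OHT 0.06 (-0.25 to 0.37). Per kilobase of exon, the ratio of CDK4 to CDK6 was 0.573 ± 0.07 in shNT, 1.11 ± 0.29 in shNT+OHT, 0.815 ± 0.06 in the libraries labelled shCDK12 and 0.777 ± 0.10 in those labelled shCDK12+OHT.

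CDKN1B, the p27 inhibitor, ranged from 68.2 to 107 CPM, and the 4 groups overlapped each neighbour in the order of their means. Its largest log2 fold change was 0.22 ± 0.10, for OHT in the libraries labelled shCDK12 (adjusted p = 0.0819), and it was 0.02 for OHT in shNT (interval -0.32 to 0.35). Of its 5 tests 0 passed in edgeR and 0 by DESeq2, and 1 had an unadjusted p under 0.05. The first of these differences passed the test without shCDK12 replicate 2 (0.28, adjusted p = 0.0165) and without shCDK12_OHT replicate 3 (0.29, adjusted p = 0.0438), with no filter on low counts (0.25, adjusted p = 0.0437) and after a length trend was removed (0.26, adjusted p = 0.0321). Removing that trend also made CDKN1B higher in the libraries labelled shCDK12 than in shNT with OHT (0.40, adjusted p = 0.0321).

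CDC25A, which activates CDK2 and whose promoter holds the E2F site shown above, stood at 200.3, 210.2 and 195 CPM in shNT and 249, 218 and 243 in shNT+OHT. It was 303, 294 and 299 CPM in the libraries labelled shCDK12, above every other library, and 173, 197 and 177 in those labelled shCDK12+OHT. It was higher in the libraries labelled shCDK12 than in shNT (log2 fold change 0.60 ± 0.08, adjusted p = 6.96e-07) and fell in them upon MycER activation (-0.74 ± 0.08, adjusted p = 2.39e-07). The shNT+OHT libraries lay above the shNT libraries without overlap, yet the difference of 0.23 ± 0.12 missed the threshold (adjusted p = 0.188) and passed it only in the fit of all 12 libraries (0.26, adjusted p = 0.0423). With OHT, CDC25A was lower in the libraries labelled shCDK12 than in shNT (-0.38 ± 0.11, adjusted p = 0.0144). That call was lost without shCDK12_OHT replicate 1 or 3 (adjusted p = 0.0905 and 0.075) and after thinning (0.242).

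**Figure D3:**
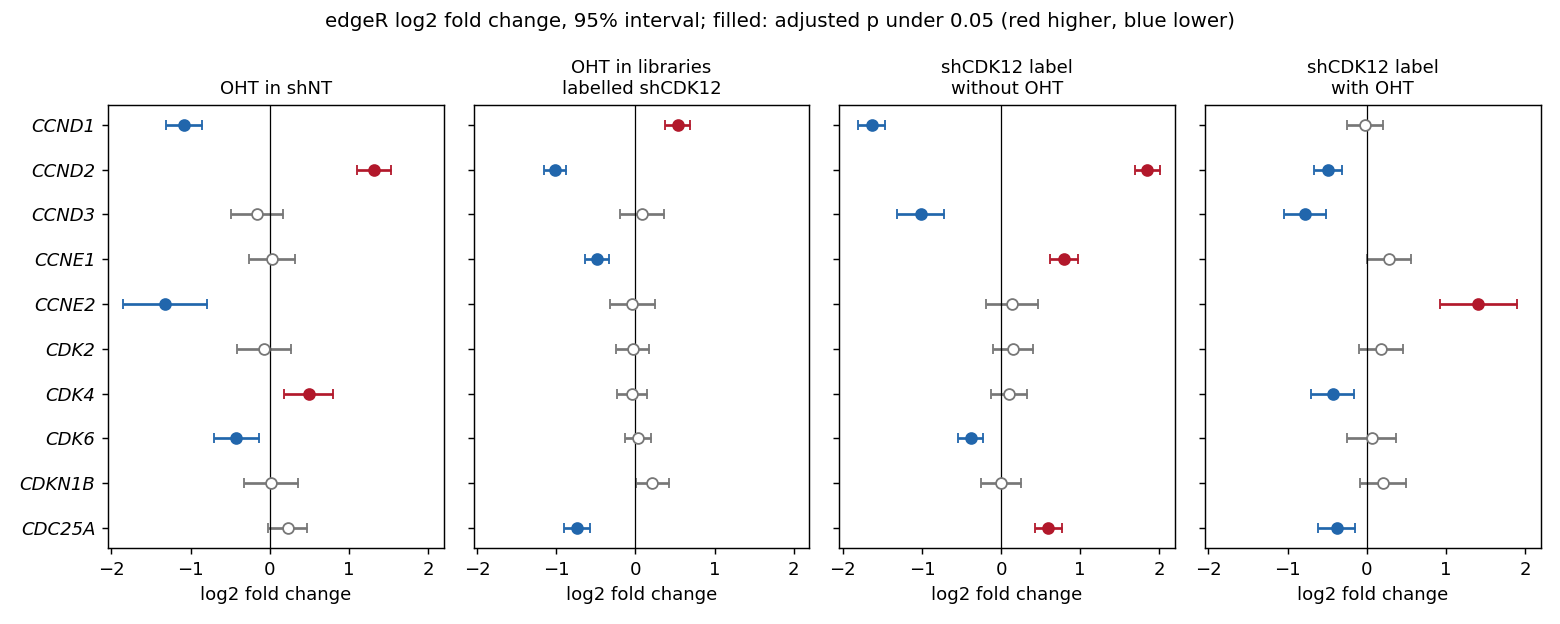
Log2 fold change (x axis) of each gene (y axis) in the 4 pairwise comparisons, with bars of the 95% interval; filled points have an adjusted p under 0.05 (red higher, blue lower) and open points do not. CCND1 and CCND2 lie on opposite sides of 0 in the first 3 panels, and CDK2 and CDKN1B are open in all 4.

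Counted over the 10 genes, all of which passed the filter in every comparison, 5 were called upon MycER activation in shNT, 2 higher and 3 lower. Of all 9994 genes tested there 17.9% were called, 9.37% higher and 8.54% lower. OHT in the libraries labelled shCDK12 moved 4 of the 10, 1 higher and 3 lower, against 49.4% of all genes (25.6% higher and 23.7% lower). Between the hairpin labels without OHT 6 were called, 3 in each direction, against 62.4% (31.6% higher and 30.9% lower). With OHT 5 were called, 1 higher and 4 lower, against 46.3% (23.3% higher and 23% lower). In that comparison 2 were called after thinning, 1 in each direction, and 7 after a length trend was removed, 4 higher and 3 lower. The differences between these shares were not tested, and the 10 genes were chosen with earlier results of these data known. For OHT in shNT the count of the 10 genes was 3 without shNT replicate 1, 2 or 3 or shNT_OHT replicate 3, where genes called in the whole table fell from 1789 to 761, 645, 837 and 1072. It was also 3 after a length trend was removed, with 1446 genes called. In absolute log2 fold change the median of the 10 genes was 0.32 for OHT in shNT, against 0.30 over all genes tested. For OHT in the libraries labelled shCDK12 it was 0.15 against 0.33. Between labels it was 0.49 against 0.50 without OHT and 0.33 against 0.45 with it.

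The OHT responses in shNT and in the libraries labelled shCDK12 rest on separate libraries, so they could be set side by side. Of the 10 genes, 7 had opposite signs (70%), as did 71.1% of the 9952 genes tested in both. The opposite signs of CCND1 and CCND2 were thus those of most genes tested, and an exchange of the labels shCDK12 and shCDK12+OHT would turn them.

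**Figure D4:**
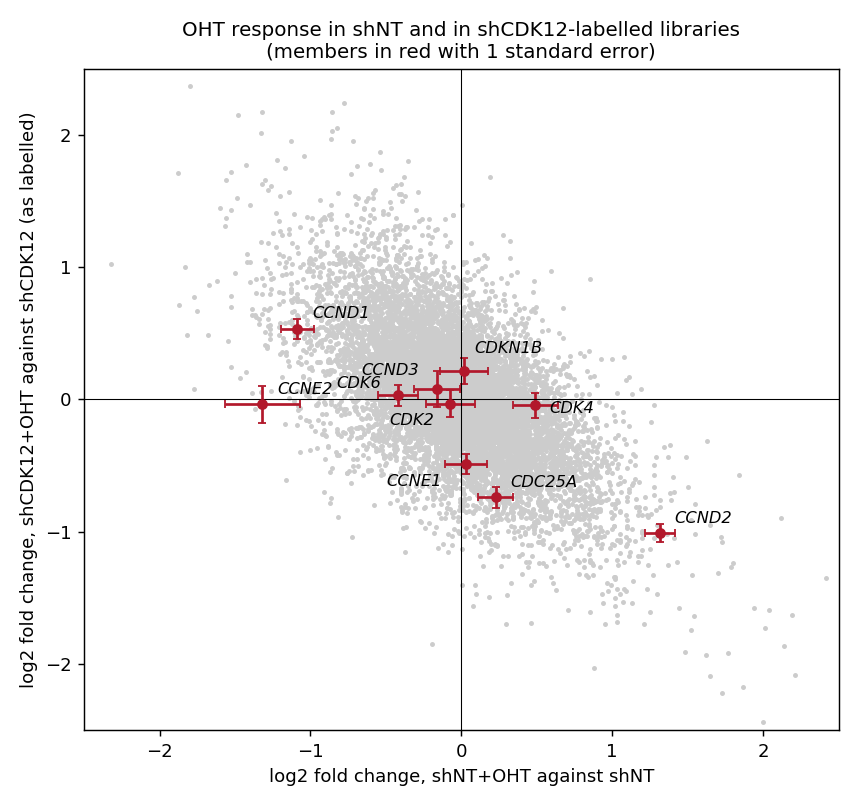
Log2 fold change upon OHT in shNT (x axis) and in the libraries labelled shCDK12 (y axis) for all 9952 genes tested in both (grey; 8 lie outside the axes) and the 10 genes (red, with 1 standard error). CCND1 sits in the upper left and CCND2 in the lower right, within a cloud of genes that runs from upper left to lower right.

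The difference between these OHT responses was tested with the interaction of OHT and hairpin label over all 12 libraries, in which 46% of 11299 genes were called, 23.8% higher and 22.3% lower. Of the 10 genes 7 were called, 3 higher (CCND1, CCNE2 and CDK6) and 4 lower (CCND2, CCNE1, CDK4 and CDC25A). The largest term was that of CCND2, at -2.36 ± 0.11 (adjusted p = 2.88e-12), followed by CCND1 at 1.59 ± 0.12 (adjusted p = 3.96e-09). CCND3, CDK2 and CDKN1B did not pass, with intervals of -0.26 to 0.66, -0.37 to 0.37 and -0.20 to 0.55.

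Genes whose log2 CPM most resembled each member across the 12 libraries were sought among 11299 genes, as a description, since the libraries fall into 4 groups and any gene that follows the groups will correlate. CCND1 was most like CAMK2N1 (Pearson r = 0.98), ARHGAP31 (0.98) and TBC1D2 (0.98). CCND2 was most like ZNF584 (0.99), BEND3 (0.99) and ZNF550 (0.98). CDC25A was most like RGMB (0.97), RANBP1 (0.97) and MCM4 (0.96), a subunit of the replicative helicase. CCND3 was most like ACAD9 (0.97), CCNE1 like the pseudogene BMS1P20 (0.96), CCNE2 like MRS2 (0.95), CDK4 like EDA (0.93) and CDK6 like EXOC5 (0.97). The closest genes to CDK2 and CDKN1B were WHRN (0.85) and ZNF112 (0.85). Between members, CCND1 and CCND2 had r = -0.95.

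The other genes of the pathway were read from lists by role. Of the alternatives, only DESeq2 was applied to these lists. Their calls were not tried with thinning, with a length trend removed or with single libraries left out. Over all genes tested, 17.9% were called for OHT in shNT and 49.4% for OHT in the libraries labelled shCDK12. Between hairpin labels 62.4% were called without OHT and 46.3% with it. Whether any list departed from these shares was not tested. Of 6 CDK inhibitors, 3 to 5 passed the filter. For OHT in shNT 0 of 3 were called by edgeR and 0 by DESeq2, with 1 at an unadjusted p under 0.05. OHT in the libraries labelled shCDK12 raised 2 of 5 and lowered 0, with 0 lower also by DESeq2 and unadjusted. Between labels without OHT 1 of 5 was higher and 2 were lower, and with OHT 2 of 4 were higher and 1 was lower. CDKN1A (p21) rose upon OHT in the libraries labelled shCDK12, from 1568 ± 58.9 to 2722 ± 86.0 CPM (SD, n = 3 each; log2 fold change 0.76 ± 0.07, adjusted p = 3.98e-08). CDKN2B (p15) was 73.1 ± 3.74 CPM in shNT and 14.5 ± 1.72 in the libraries labelled shCDK12 (-2.31 ± 0.15, adjusted p = 5.66e-13), and was also lower with OHT (-1.60 ± 0.16, adjusted p = 3.76e-05). CDKN2D went the other way without OHT, from 15.4 ± 1.84 CPM in shNT to 27.3 ± 2.04 in the libraries labelled shCDK12 (0.89 ± 0.19, adjusted p = 0.00023). CDKN2C (p18) stood at 5.36 ± 2.99 CPM in shNT+OHT and 21.5 ± 3.22 in the libraries labelled shCDK12+OHT. It passed the filter there only through the latter group, so its call is no support for a difference.

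Of 10 retinoblastoma family and E2F genes 9 were tested, of which 1 rose and 2 fell upon MycER activation in shNT. The falls were RB1 itself, from 28.5 ± 2.58 to 14.9 ± 2.09 CPM (log2 fold change -0.98 ± 0.25, adjusted p = 0.0158), and the activator E2F2 (-0.92 ± 0.19, adjusted p = 0.00467). OHT in the libraries labelled shCDK12 raised 1 and lowered 4, among them TFDP1, the partner of E2F proteins (-0.59 ± 0.08, adjusted p = 1.30e-05). Between hairpin labels without OHT 5 were higher and 1 lower, the latter RB1 (-0.96 ± 0.19, adjusted p = 9.24e-05). With OHT 3 were higher, E2F2 most (1.42 ± 0.14, adjusted p = 2.86e-05), and 3 lower. These counts stand beside 17.9%, 49.4%, 62.4% and 46.3% of all genes called, in the same order of comparisons.

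Of 10 genes for the turnover of G1 regulators, 1 was called for OHT in shNT, the F-box gene FBXO31 (0.76 ± 0.16, adjusted p = 0.00629). Among these, OHT in the libraries labelled shCDK12 raised 3 and lowered 3, with the largest changes in FZR1, the APC/C activator of G1 (0.93 ± 0.13, adjusted p = 1.01e-05), and CKS1B, a cofactor of SKP2 (-0.67 ± 0.15, adjusted p = 0.00115). FZR1 was lower in the libraries labelled shCDK12 than in shNT without OHT (-1.25 ± 0.16, adjusted p = 1.04e-07); 3 genes were higher and 3 lower in that comparison. With OHT 1 was higher, FBXW7 (0.81 ± 0.15, adjusted p = 0.00148), and 2 lower. Of 7 kinases and phosphatases acting on CDKs, 0 were called for OHT in shNT, also by DESeq2 and at an unadjusted p under 0.05, and 4, all lower, in the libraries labelled shCDK12. The largest was PKMYT1, an inhibitory kinase of CDK1 (-1.02 ± 0.19, adjusted p = 0.000174). WEE1, another inhibitory kinase, was higher in the libraries labelled shCDK12 than in shNT without OHT (1.08 ± 0.09, adjusted p = 9.01e-11), where 2 were higher and 1 lower. With OHT 2 were higher and 3 lower, PKMYT1 most (-1.61 ± 0.24, adjusted p = 0.000381). The counts of both lists stand beside 17.9%, 49.4%, 62.4% and 46.3% of all genes called, in the same order of comparisons.

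Because the genes above are cycle regulated, the position of the cells was read from 14 G1/S and 10 G2/M genes, all of which were tested. For OHT in shNT 1 G1/S gene rose and 1 fell (median log2 fold change 0.14, against -0.03 over all genes), and 0 of the G2/M genes were called by edgeR, by DESeq2 or at an unadjusted p under 0.05. OHT in the libraries labelled shCDK12 lowered 12 of the 14 G1/S genes (median -0.65, against 0.01) and all 10 G2/M genes (median -0.80), and 0 rose by edgeR, DESeq2 or unadjusted p. In DESeq2 it lowered 13 G1/S genes. Over all genes edgeR called 23.7% lower there, 31.6% higher between labels without OHT, and 23% lower between labels with OHT. Without OHT, 10 of the G1/S genes were higher in the libraries labelled shCDK12 than in shNT and 0 lower (median 0.51, against 0.01; 10 and 0 by DESeq2, 10 and 1 at an unadjusted p under 0.05), with 4 G2/M genes higher and 2 lower. With OHT, 1 G1/S gene was higher and 5 lower, and 7 G2/M genes were lower and 0 higher (7 and 0 by DESeq2, 8 and 0 unadjusted). CCND2, CCNE1 and CDC25A were called in the same direction as the G1/S genes both for OHT in the libraries labelled shCDK12 and for the hairpin label without OHT, and CCND1 in the opposite direction in both. Both comparisons use the same libraries labelled shCDK12 without OHT, with opposite sign, so they are not separate observations. For OHT in shNT, CCND2 was called higher (1.31) and CCND1 lower (-1.09), while CCNE1 (0.03) and CDC25A (0.23) were not called. The part of cell position in their changes was not tested.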

How the data were processed

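EU-seq was performed on 12 libraries of U2OS-MycER cells, 3 per group. The authors deposited raw counts per gene for 23434 Entrez identifiers, and the submitters' processing notes name STAR 2.7.5c, featureCounts 1.4.5-p1 and hg19. The annotation, the feature counted and the strand setting are not given in the sources used here. Captured RNA came from 40 µg of human and 10 µg of mouse RNA, and scaling by mouse RNA was not used here. RefSeq gave symbols for 23284 identifiers.

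Tests used edgeR 4.0.16 (R 4.3.3) with TMM factors and the quasi-likelihood test, and p-values were adjusted by Benjamini-Hochberg over all genes tested and called under 0.05. Genes needed a mean above 32 normalized counts across the libraries fitted. Each pair of groups was fitted on its 6 libraries and the interaction on 12. CPM were TMM-scaled. Library totals ran from 1251695 to 10447836, lowest in shNT+OHT. Replicates differed beyond counting error, with a chi-square per degree of freedom of 2.92 to 10.7, highest between shNT_OHT replicates 1 and 2. Each SE was derived from the quasi-likelihood test, as the absolute log2 fold change divided by the square root of its F statistic. It is therefore not a separate estimate. Intervals are 95% and use this SE with the t quantile at the degrees of freedom of edgeR. The alternatives tried were a replicate block, thinning, removal of a trend with RefSeq span, DESeq2 1.42.0, upper-quartile scaling, 2 other filters, all 12 libraries fitted together, and each library left out.

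The members and lists were chosen with earlier results of these data known. All 10 members are named, with at most 2 called genes of each of 4 pathway lists per comparison, taken by absolute log2 fold change, and the 3 genes most like each member.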

Additional observations from a re-analysis of the deposited data

Results flagged for a closer look

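The OHT response differed between shNT and the libraries labelled shCDK12 for 7 of the 10 genes, by the interaction term in edgeR's quasi-likelihood test over all 12 libraries (log2 scale, the response in the libraries labelled shCDK12 minus that in shNT). The term was 1.59 for CCND1 (adjusted p = 3.96e-09), -2.36 for CCND2 (2.88e-12), 1.24 for CCNE2 (0.00133) and -1.01 for CDC25A (3.52e-06). It was -0.55 for CCNE1 (0.00476), -0.57 for CDK4 (0.0102) and 0.43 for CDK6 (0.0313). Since 46% of all genes tested were called in this interaction, the flags are not particular to these genes. The size and sign of each term also rest on the labels shCDK12 and shCDK12+OHT, whose exchange was not tested. The term of CDK6 lost its call without shNT replicate 2 or 3, shNT_OHT replicate 1 or 3, shCDK12 replicate 1 or 3, or shCDK12_OHT replicate 1 (adjusted p from 0.0514 to 0.0959). With libraries thinned to equal totals CCNE1 (adjusted p = 0.344), CDK4 (0.394) and CDK6 (0.0818) were not called, and with a length trend removed CDK4 (0.163) and CDK6 (0.521) were not.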

How the results depend on the processing

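Of 50 results (10 genes in 5 comparisons), 20 kept their direction and their side of the threshold under every alternative, 9 were lost as calls under some alternative, 6 were gained, and 16 turned in sign, of which 0 while called. The signs that turned were those of differences near 0 without a call. Thinned to equal totals, genes called fell to 808 for OHT in shNT, 1060.0 for OHT in the libraries labelled shCDK12, 2951 between labels without OHT, 1864 with OHT and 1812 for the interaction, and members called to 2 between labels with OHT and 4 for the interaction. Thinning turned CCNE1 to -0.052 for OHT in shNT, CCND3 to -0.10 and CDK6 to -0.0084 for OHT in the libraries labelled shCDK12, CDK4 to -0.092 between labels without OHT and CDK2 to 0.29 in the interaction. With the length trend removed, members called for OHT in shNT were 3, and CCND3 (0.034), CCNE1 (-0.052) and CDKN1B (-0.16) turned there. So did CCND3 (-0.0091), CDK2 (0.0074), CDK4 (0.0097) and CDK6 (-0.11) for OHT in the libraries labelled shCDK12, CCND1 (0.081) and CDK6 (-0.22) between labels with OHT, and CCND3 (-0.042) and CDK2 (0.24) in the interaction; the members called between labels with OHT then split 4 higher and 3 lower in place of 1 and 4. CDK2 turned with no filter on low counts to 0.0010 for OHT in the libraries labelled shCDK12 and 0.063 in the interaction, and there to 0.044 with upper-quartile normalization. A single fit of all 12 libraries called 3265 genes for OHT in shNT. No filter moved the median of all genes to 0.12 between labels without OHT, 0.21 with OHT and 0.12 in the interaction. The causes were not tested. The numbers were not taken to pair the libraries: deviations of same-numbered libraries correlated between -0.10 and 0.33 with 3 of 18 over 0.1, and those of other libraries between -0.36 and 0.092 with 0 of 36 over 0.1. The highest, 0.29 and 0.33, joined replicates 1 and 2 of shNT+OHT to those labelled shCDK12. With the replicate number as a block, genes called were 1706, 6165, 7318, 4682 and 5313 in the order OHT in shNT, OHT in the libraries labelled shCDK12, labels without OHT, labels with OHT and interaction, members called were 5, 4, 6, 5 and 7, CDKN1B turned to 0.011 between labels without OHT and CDK2 to 0.024 in the interaction. Leaving out 1 library at a time gave 645 to 2530 genes and 3 to 5 members for OHT in shNT, and 3 to 6 members between labels with OHT. For OHT in shNT it gave CCNE1 -0.091 to 0.15, CDK2 -0.13 to 0.0083 and CDKN1B -0.082 to 0.11. For OHT in the libraries labelled shCDK12 it gave CCND3 -0.10 to 0.27, CCNE2 -0.17 to 0.19, CDK2 -0.12 to 0.055, CDK4 -0.10 to 0.0095 and CDK6 -0.038 to 0.073. Between labels it gave CCNE2 -0.088 to 0.27 and CDKN1B -0.11 to 0.084 without OHT, and CCND1 -0.061 to 0.021 and CDK6 -0.081 to 0.18 with OHT. In the interaction it gave CDK2 -0.068 to 0.091. CCNE2 rests on 21 to 93 counts in the shNT+OHT libraries.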
